A study of Mus musculus with 6 samples.

Results

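Matrix metalloproteinases, their tissue inhibitors, the ADAMTS proteases with the related ADAMTS-like proteins, and the lysyl oxidases were followed in liver RNA of 6 male C57BL/6J mice, 1 Affymetrix array per mouse. The rule for members used the symbol alone, but it was set with earlier results of these data known. It took every gene of the Mmp, Timp, Adamts, Adamtsl, Lox and Loxl families that a probe set of its own represents. This gave 53 of 22180 genes, namely 22 Mmp, 4 Timp, 18 Adamts, 5 Adamtsl and 4 Lox or Loxl genes. Adamts2, Loxl2 and Mmp15 are not analysed here.

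The HKO group (n = 3) carries Slug f/f alleles and albumin-CreERT2, a Cre recombinase that needs tamoxifen and is made in hepatocytes under the albumin promoter; Slug (symbol Snai2) is a transcriptional repressor of the Snail family. The Con group (n = 3) holds floxed littermates, Slug f/f. The sources used here do not state if Con animals had the driver or how tamoxifen was given. All 6 mice were fed a high fat diet (fat made up 60% of its calories) for 11 weeks, starting when they were 8 weeks old. By design Slug is removed in hepatocytes, while the stellate, endothelial and immune cells that make many of these proteins keep the gene.

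The extracellular matrix of the liver is made mostly by stellate cells and portal fibroblasts and is trimmed by zinc proteases. Metalloproteinases cleave collagens, elastin and basement membrane; TIMP proteins block them by occupying the active-site zinc. ADAMTS proteases cut proteoglycans, procollagen ends and von Willebrand factor, ADAMTS-like proteins lack the protease domain, and lysyl oxidases crosslink collagen and elastin, which makes scar tissue resistant to proteolysis.

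All values are the log2 values the authors deposited, and a difference is HKO minus Con on that scale. Snai2, the targeted gene, had log2 values of 4.62, 5.23 and 5.69 in HKO arrays, against 7.74, 7.69 and 7.39 in Con arrays, a difference of -2.43 ± 0.25 (SE) with a limma adjusted p of 0.0145. That call was lost when Con replicate 1 (0.0758), Con replicate 2 (0.0927) or HKO replicate 2 (0.0621) was left out and with the replicate block (0.0540). Over all genes the arrays correlated at 0.989 to 0.992 within groups and 0.986 to 0.988 across them. The 9 hepatocyte markers checked had mean levels from 8.83 to 12.44, against a median gene at 3.94, so the tissue matched its label. Of the 53 members, 20 lay at or above that median level and 33 below it. The array gives no detection call, so members below the median are not shown to be above background, and levels of different probe sets cannot be set against each other.

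The families leaned towards lower values in HKO livers, but no single member passed the test. Of 53 members, 0 passed a limma adjusted p of 0.05 over all genes, where 0.203% of all genes passed, 0.113% lower and 0.0902% higher in HKO. At an unadjusted p under 0.05, 13 members were lower in HKO (24.5% of members, against 6.56% of all genes) and 0 were higher (against 5.31% of all genes). HKO values lay wholly below Con values in 11 members (20.8%), against 10.1% of all genes, and wholly above in 1 member, against 8.05% of all genes. The median difference over the members was -0.13, and -0.01 over all genes; 34 members had a lower and 19 a higher HKO mean. The 13 were Mmp12, Mmp13, Mmp14, Mmp28, Timp1, Timp2, Adamts1, Adamts4, Adamts12, Adamts13, Adamtsl2, Lox and Loxl3, so every family held at least 1. Over all 53 members the count was 8 when HKO replicate 3 or Con replicate 2 was left out and 7 when Con replicate 3 was left out, and the median difference was -0.08 without HKO replicate 2 and -0.08 without Con replicate 2. All 13 had a lower HKO mean without each array in turn. With 3 against 3 arrays, an exact two-sided permutation test of 1 gene cannot go below 0.1, so limma's p, which shares variance between genes, is the one given.

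**Figure D1:**
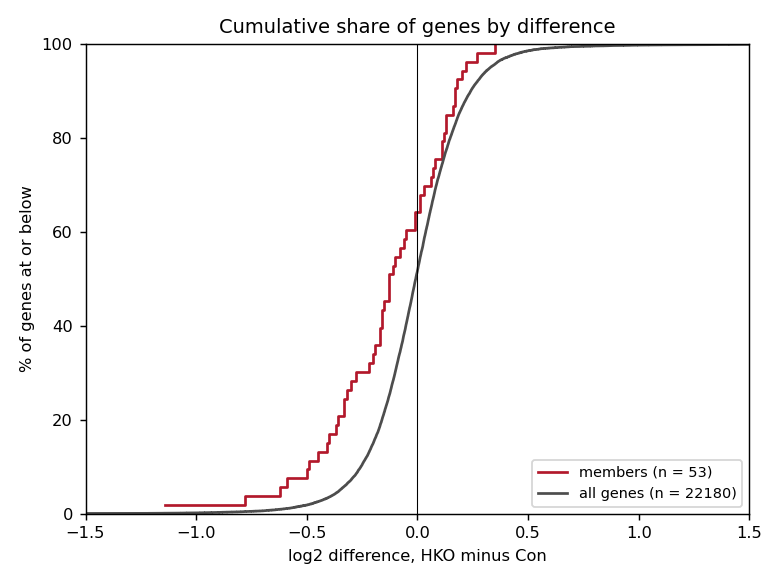
Cumulative share of genes (vertical axis, %) by log2 difference HKO minus Con (horizontal axis), for the 53 members (red) and all 22180 genes (grey). The members' curve runs left of that of all genes over most of the range, with medians of -0.13 and -0.01.

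Members with a higher array level mostly had lower HKO values. The members with a mean level of 5 or more over the 6 arrays were 7: Mmp12, Mmp14, Mmp19, Timp2, Timp3, Adamts1 and Adamtsl2. All 7 had a lower HKO mean, where 57.8% of the 8120 genes at that level did. At an unadjusted limma p under 0.05, 5 were lower, or 71.4%, against 9.56% of those 8120 genes. The level includes the Con arrays, and Mmp12 (HKO mean 4.76) and Adamtsl2 (HKO mean 4.97) reached it only through Con. Both are among the 5, so the members' share depends in part on how the level was taken. The median difference of the 7 was -0.37, against -0.03 for those 8120 genes. Of the 33 members below the median level, 19 had a lower and 14 a higher HKO mean, and 5 were lower at an unadjusted p under 0.05, or 15.2%, against 3.52% of all genes below that level.

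**Figure D2:**
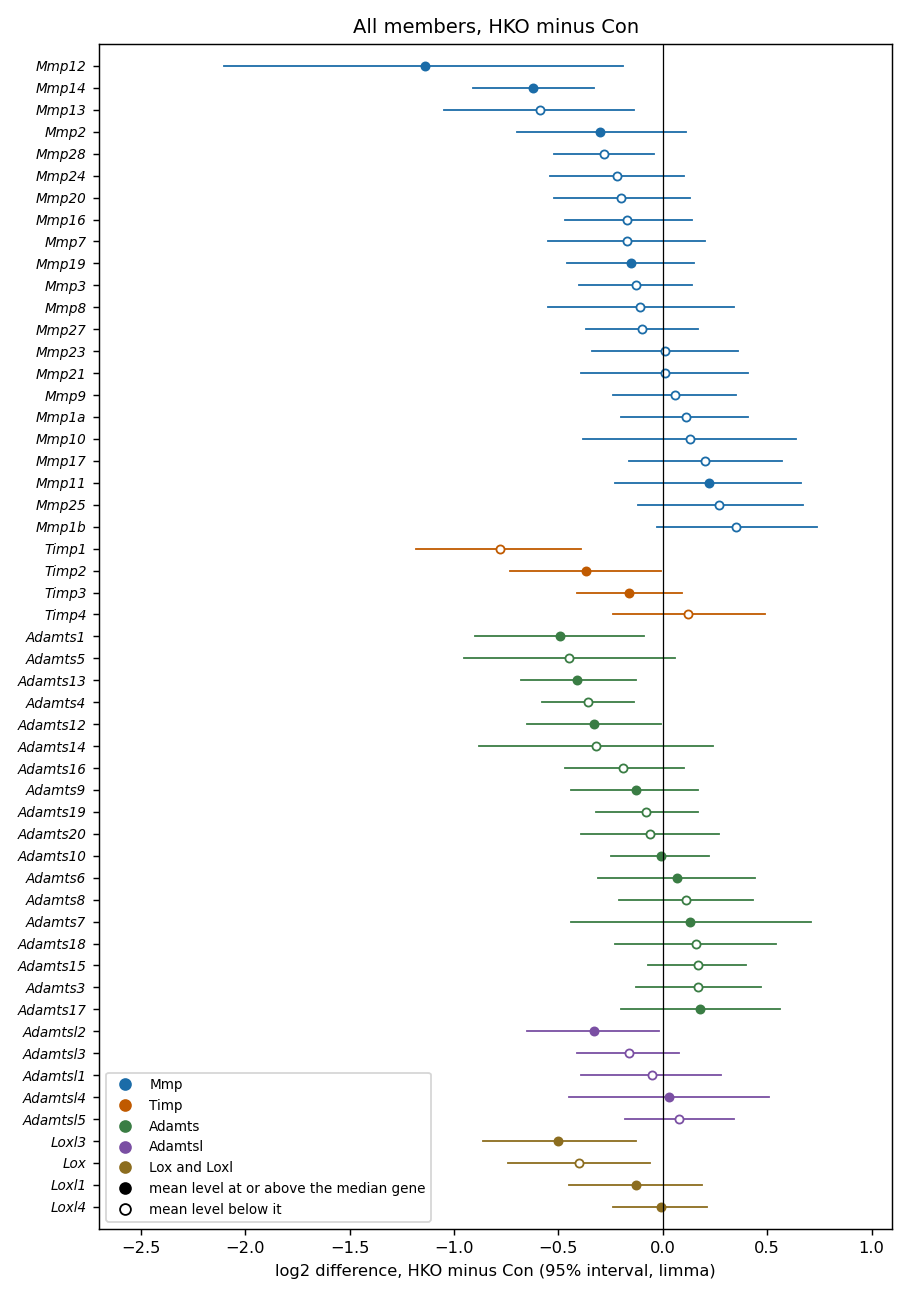
Log2 difference HKO minus Con of all 53 members (points) with its 95% interval from limma (lines), by family. Filled points have a mean level at or above the median gene and open points lie below it. Mmp12 lies farthest left and has the widest interval, from -2.10 to -0.19; all 4 lysyl oxidases lie left of 0.

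Among the metalloproteinases, Mmp14 had the lowest p of all 53 members. It encodes a membrane-anchored collagenase that also activates the proenzyme of Mmp2. Its log2 values were 6.97, 6.73 and 6.66 in HKO livers, against 7.51, 7.46 and 7.24 in Con livers. Every HKO array lay below every Con array, and the arrays within a group differed little. The difference was -0.62 ± 0.13 (SE), or 1.53-fold lower, and its 95% interval ran from -0.91 to -0.33 (limma adjusted p = 0.133, unadjusted p = 0.00115). Over 16 alternatives the adjusted p ran from 0.0293 (a variance trend) to 0.363 (without Con replicate 2), and it passed 0.05 in 2 of them, the other being the test of genes at a level of 5 or more (0.0333). Mmp2, gelatinase A, was chosen after its values were seen: it had 4.42, 4.59 and 4.22 in HKO, against 4.46, 4.59 and 5.07 in Con, and the groups overlapped (-0.30 ± 0.18, adjusted p = 0.567).

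Mmp12, the elastase of macrophages, had the largest difference and the widest spread of the members. HKO livers held 3.74, 4.83 and 5.72, against 5.95, 5.73 and 6.04 in Con livers. HKO replicate 1 was far below the other arrays, while HKO replicate 3 lay just under the lowest Con array. The difference was -1.14 ± 0.42 (SE), 2.21-fold lower, with an adjusted p of 0.348, and it was -0.63 without HKO replicate 1 and -1.62 without HKO replicate 3. The SD was 0.99 in HKO and 0.16 in Con.

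In the same arrays, the 10 measured markers of monocyte-derived macrophages had mean log2 levels of 3.86, 4.16 and 3.95 in HKO, against 4.42, 4.68 and 4.38 in Con. All 3 HKO arrays lay below the Con arrays, and HKO replicate 2 was the highest of the HKO arrays, where HKO replicate 3 was the highest for Mmp12. Of the single markers, chosen after their values were seen, Gpnmb had 3.52, 3.96 and 4.20 in HKO, against 4.65, 5.27 and 5.30 in Con, and Trem2 had 3.74, 4.02 and 4.40 in HKO, against 4.26, 4.52 and 4.40 in Con. In both the HKO arrays stood in the order of Mmp12, as they did in Fabp5, whose HKO mean was higher than that of Con. Cx3cr1 (4.94, 4.55 and 4.18 in HKO) and Chil3 (2.59, 2.55 and 2.50 in HKO) ran in the reverse order. The remaining markers ran in further orders. The Gpnmb difference was -1.18 ± 0.22 (SE, limma adjusted p = 0.112), and that of Trem2 was -0.34 ± 0.17 (limma adjusted p = 0.494). Of these 10 markers, 5 were lower at an unadjusted limma p under 0.05, where 6.56% of all genes were. Itgax, an integrin chain of recruited macrophages and dendritic cells, fell (-1.02 ± 0.12, adjusted p = 0.0280). Of the 10 markers, 6 lay at or above the median level. Itgax lay below it, and markers below it are not shown to be above background. The Itgax call was lost without any 1 of the 6 arrays (adjusted p from 0.0621 to 0.149) and with the replicate block (0.0514). The 8 Kupffer cell markers had mean levels of 7.07, 7.08 and 6.86 in HKO, against 7.14, 7.01 and 6.83 in Con, which overlapped. At an unadjusted p under 0.05, 1 of them was higher (C6), where 5.31% of all genes were. Fewer cells of a type and less RNA per cell cannot be told apart in pieces of whole liver, and the part of macrophage content in the Mmp12 values was not tested.

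Mmp13, the main interstitial collagenase of rodents, had 2.47, 2.57 and 3.23 in HKO, against 3.52, 3.31 and 3.23 in Con. HKO replicate 3 stood at the level of the lowest Con array and the other HKO arrays below it. The difference was -0.59 ± 0.20 (SE; adjusted p = 0.305). Mmp28, epilysin, had 2.79, 2.66 and 2.89 in HKO, against 3.12, 3.08 and 2.99 in Con (-0.28 ± 0.10, adjusted p = 0.360). Both genes lay below the median level, so the size of their difference is that of the array values alone.

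The other 18 Mmp genes had no unadjusted p under 0.05, with 9 lower and 9 higher HKO means and differences from -0.30 (Mmp2) to 0.35 (Mmp1b). Mmp19, a secreted protease of basement membrane proteins, had 7.52, 7.14 and 7.48 in HKO, against 7.60, 7.40 and 7.60 in Con. Its groups overlapped (-0.15 ± 0.13, adjusted p = 0.710). Mmp1b, a rodent counterpart of interstitial collagenase, lay below the median gene, with 1.83, 2.40 and 2.42 in HKO, against 1.76, 1.87 and 1.96 in Con (0.35 ± 0.17, adjusted p = 0.464). Mmp1a and Mmp1b are close copies, and probes can take signal from either. Gelatinase B, Mmp9, a protease of neutrophils and macrophages chosen after its values were seen, had 3.45, 3.81 and 3.83 in HKO, against 3.71, 3.65 and 3.58 in Con, with a difference of 0.06 ± 0.13 and a 95% interval from -0.24 to 0.35. The 11 neutrophil markers had mean levels of 2.74 to 2.92 in HKO and 2.86 to 3.02 in Con, and 1 of the 11 lay above the median gene. At an unadjusted p under 0.05, 2 were lower (S100a8 and Cxcr2), where 6.56% of all genes were.

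The 10 Mmp genes that lie side by side on chromosome 9 did not share a common value. Mmp12 and Mmp13 were the 2 of these with an unadjusted p under 0.05. The other 8, Mmp1a, Mmp1b, Mmp3, Mmp7, Mmp8, Mmp10, Mmp20 and Mmp27, had differences between -0.20 (Mmp20) and 0.35 (Mmp1b). The median of the 10 was -0.12, and that of the 12 Mmp genes elsewhere -0.07. Neighbours of this cluster are known to carry a binding site of the AP-1 transcription factor just before the start of transcription. Stretches from 4 of its genes are shown, from the 2 genes with lower values and from 2 neighbours without, because the same letters stand in both kinds. Each is the 120 bases before a RefSeq start of GRCm38.p6, plus strand, with the AP-1 motif TGANTCA in capitals.
Mmp13 (chr9:7272394-7272513): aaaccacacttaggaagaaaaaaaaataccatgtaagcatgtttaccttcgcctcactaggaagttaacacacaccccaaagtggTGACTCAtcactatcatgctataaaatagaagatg
Mmp12 (chr9:7347254-7347373): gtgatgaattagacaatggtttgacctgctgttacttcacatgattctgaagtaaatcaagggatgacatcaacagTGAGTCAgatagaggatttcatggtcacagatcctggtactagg
Mmp3 (chr9:7445702-7445821): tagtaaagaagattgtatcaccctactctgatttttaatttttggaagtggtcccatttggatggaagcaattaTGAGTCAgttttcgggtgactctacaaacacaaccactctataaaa
Mmp10 (chr9:7502222-7502341): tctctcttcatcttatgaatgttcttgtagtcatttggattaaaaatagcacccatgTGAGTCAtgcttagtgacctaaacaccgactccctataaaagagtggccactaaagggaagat

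The motif began 35 bases before the start in Mmp13, 44 in Mmp12 (the second of its RefSeq starts), 46 in Mmp3 and 63 in Mmp10. Mmp3 had log2 values of 2.19, 2.03 and 2.30 in HKO, against 2.20, 2.27 and 2.44 in Con, and Mmp10 had 3.21, 2.45 and 2.76 in HKO, against 2.73, 2.98 and 2.34 in Con. Neither separated the groups, and both lay below the median level, so neither is shown to be above background. In windows from 250 bases before to 50 after the start, TGANTCA, which reads the same on both strands, stood in 8 of the 10 genes of the cluster. It stood in 8 of the 38 windows found for 35 members (21.1%), all of them in this cluster, and in 7.81% of all 32851 windows. It stood in 2 of the 11 windows of members lower at an unadjusted p under 0.05, and in 6 of the 27 windows of the others.

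The E-box CAGGTG, which reads as CACCTG on the other strand, is the sequence that Snail-family proteins such as Slug bind. It was searched in the same windows. It stood in 8 of the members' 38 windows (21.1%), and in 20.2% of all windows. Among the 11 windows of 10 members that were lower at an unadjusted p under 0.05, 1 held it, in Timp2; among the 27 windows of the other members, 7 did. In the windows of Mmp10 and Mmp20, which hold both motifs, the matches do not overlap, and a match is a string of letters, not a shown binding site. The Timp2 stretch, 120 bases before its RefSeq start on the minus strand of GRCm38.p6, is given with the E-box in capitals, since it is the only such match among these 10 members.
Timp2 (chr11:118355412-118355531): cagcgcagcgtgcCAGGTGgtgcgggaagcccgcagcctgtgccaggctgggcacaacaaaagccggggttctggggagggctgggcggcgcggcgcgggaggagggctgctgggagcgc

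Of the 4 inhibitors, Timp1 and Timp2 had lower values in HKO, and Timp3 and Timp4 overlapped. Timp1, a secreted inhibitor that is raised in liver injury and scarring, had 2.38, 2.58 and 2.57 in HKO, against 2.94, 3.61 and 3.34 in Con. The HKO arrays were close together and all below the Con arrays. The difference was -0.78 ± 0.17 (SE), with a 95% interval from -1.18 to -0.39 and a limma adjusted p of 0.149. Its level lay below the median gene in both groups, so the size of the change in transcript is not settled by these arrays.

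Timp2, which inhibits metalloproteinases and, bound to Mmp14, brings the proenzyme of Mmp2 to the cell surface, had 6.25, 6.32 and 5.90 in HKO, against 6.33, 6.50 and 6.76 in Con. The groups were separate by a narrow margin, since HKO replicate 2 and Con replicate 1 were nearly equal. The difference was -0.37 ± 0.16 (SE; adjusted p = 0.406). Timp3, a matrix-bound inhibitor that also acts on ADAM and ADAMTS proteases, had 6.49, 6.36 and 6.33 in HKO, against 6.45, 6.68 and 6.51 in Con. HKO replicate 1 lay within the Con range, and the 95% interval ran from -0.41 to 0.09. Timp4 had 2.98, 3.20 and 3.36 in HKO, against 3.34, 2.82 and 3.01 in Con, with a difference of 0.12 ± 0.16.

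**Figure D3:**
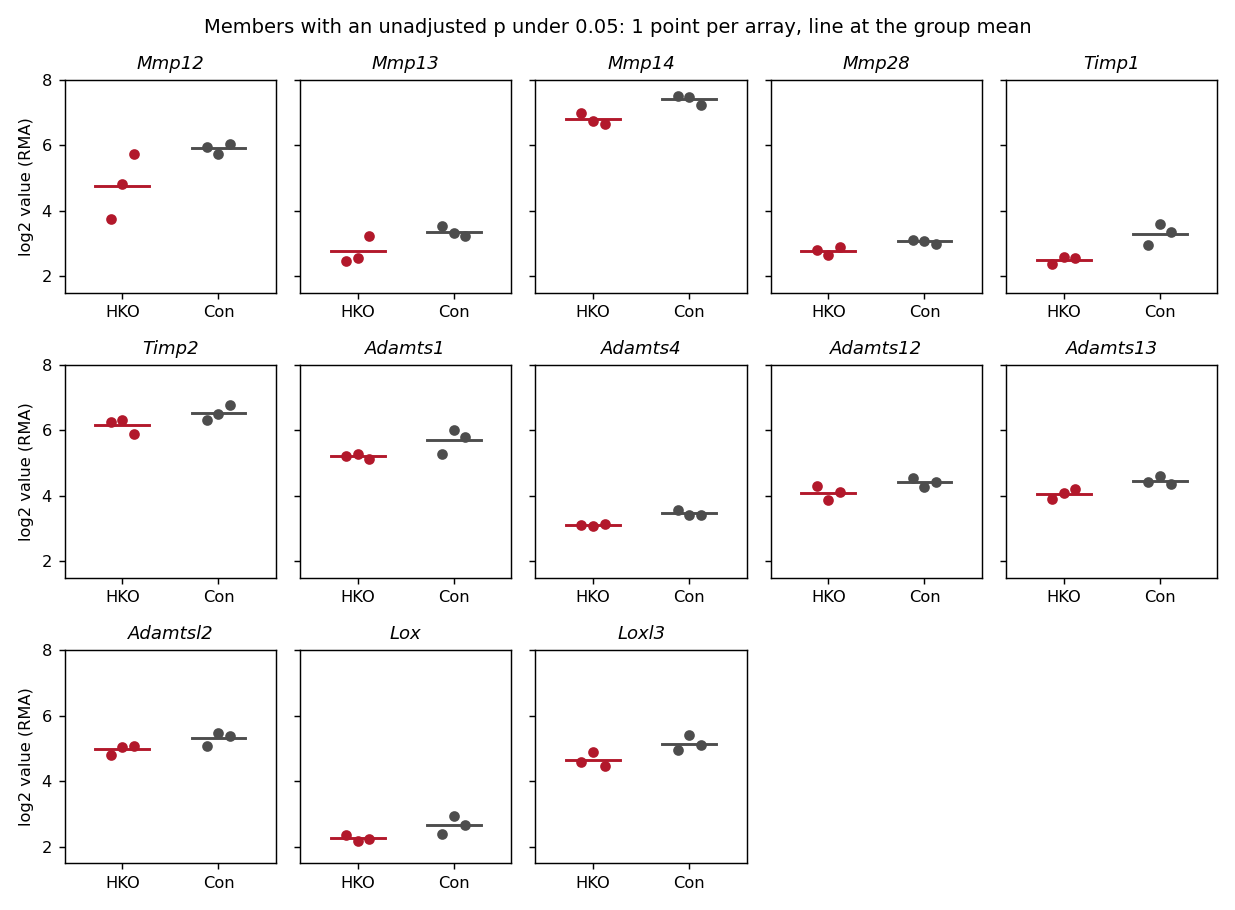
Log2 values (vertical axis) of the 13 members with an unadjusted p under 0.05, with 1 point per array, HKO in red on the left, Con in grey on the right, and a line at the group mean. Mmp12 shows the widest HKO spread, and HKO and Con points overlap in Adamts12 and meet in Mmp13; levels of different genes are not comparable.

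The ADAMTS proteases held 4 of the 13 members, at mixed levels. Adamts1, which cuts the proteoglycans versican and aggrecan, had 5.21, 5.28 and 5.12 in HKO, against 5.29, 6.00 and 5.80 in Con. Con replicate 1 was nearly as low as the HKO arrays, and the difference of -0.49 ± 0.18 (SE; adjusted p = 0.341) was -0.70 without that array. Adamts13, the protease that trims von Willebrand factor and that stellate cells make in the liver, had 3.89, 4.08 and 4.20 in HKO, against 4.41, 4.60 and 4.37 in Con. All HKO arrays lay below all Con arrays (-0.41 ± 0.12, adjusted p = 0.273).

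Adamts4, an aggrecanase, had 3.12, 3.07 and 3.14 in HKO, against 3.56, 3.42 and 3.43 in Con. Its groups were tight, with an SD of 0.03 in HKO and 0.08 in Con, and separate (-0.36 ± 0.10, adjusted p = 0.223), at a level below the median gene. Adamts12, which cuts cartilage oligomeric matrix protein, had 4.30, 3.86 and 4.11 in HKO, against 4.54, 4.28 and 4.43 in Con, where HKO replicate 1 passed the lowest Con array (-0.33 ± 0.14, adjusted p = 0.405). Adamts5, the other main aggrecanase, was chosen after its values were seen: 3.52, 3.26 and 2.62 in HKO, against 3.67, 3.69 and 3.38 in Con (-0.45 ± 0.22, adjusted p = 0.482).

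The other 14 Adamts genes, Adamts5 included, split evenly into 7 lower and 7 higher HKO means, with a median difference of 0.03. Adamts15 was the 1 member of all 53 whose HKO arrays lay wholly above the Con arrays, with 3.50, 3.43 and 3.33 in HKO, against 3.32, 3.16 and 3.27 in Con. Its lowest HKO array and highest Con array were almost equal, and its difference was 0.17 ± 0.10 (adjusted p = 0.581). Adamts9, a versican protease, had 4.81, 4.67 and 4.67 in HKO, against 4.73, 5.11 and 4.71 in Con. Adamts10, known for binding fibrillin, had 4.81, 4.76 and 4.91 in HKO, against 4.88, 4.92 and 4.73 in Con. Both overlapped between groups, and the 95% interval of Adamts10 ran from -0.25 to 0.22. The highest difference of the family, that of Adamts17, was 0.18 ± 0.16, from 4.03, 4.23 and 3.93 in HKO, against 4.22, 3.64 and 3.79 in Con.

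Of the ADAMTS-like proteins, Adamtsl2, which binds fibrillin and latent TGF-beta binding protein, was the 1 of 5 with an unadjusted p under 0.05. It had 4.78, 5.05 and 5.07 in HKO, against 5.08, 5.47 and 5.36 in Con. HKO replicate 3 nearly met Con replicate 1, and the difference was -0.33 ± 0.14 (SE; adjusted p = 0.401). The differences of Adamtsl1, Adamtsl3, Adamtsl4 and Adamtsl5 lay between -0.16 (Adamtsl3) and 0.08 (Adamtsl5). Adamtsl4, a fibrillin-binding protein, had 4.68, 5.11 and 4.28 in HKO, against 4.90, 4.57 and 4.52 in Con. Adamtsl1 had 3.70, 3.69 and 3.23 in HKO, against 3.67, 3.53 and 3.57 in Con, and Adamtsl5 had 2.98, 3.26 and 3.12 in HKO, against 3.15, 3.02 and 2.96 in Con. In these 3 genes the HKO values spanned or overlapped the Con range, and no direction was read from them.

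All 4 measured lysyl oxidases had lower HKO means, by amounts that ranged widely. Loxl3, which oxidises collagen and elastin lysines, had 4.58, 4.89 and 4.45 in HKO, against 4.94, 5.39 and 5.09 in Con. Each HKO array was below each Con array, with a difference of -0.50 ± 0.16 (SE), or 1.41-fold lower (limma adjusted p = 0.293). Lox, the founding member, had 2.36, 2.18 and 2.23 in HKO, against 2.39, 2.94 and 2.65 in Con, and HKO replicate 1 nearly met Con replicate 1 (-0.40 ± 0.15, adjusted p = 0.353). Loxl1, which acts on elastin, had 3.93, 4.20 and 4.28 in HKO, against 4.19, 4.48 and 4.14 in Con, and Loxl4 had 3.99, 4.05 and 4.11 in HKO, against a mean of 4.07 ± 0.08 (SD, n = 3) in Con. Both overlapped. The 95% interval ran from -0.24 to 0.21 for Loxl4 and from -0.86 to -0.13 for Loxl3, which overlap, and the difference between the genes was not tested.

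The extreme values of the 13 members were spread over the arrays. The lowest HKO value came from HKO replicate 1 in 5 of them, from HKO replicate 2 in 4 and from HKO replicate 3 in 4, and the highest Con value from Con replicate 1 in 5, Con replicate 2 in 6 and Con replicate 3 in 2. Over the 53 members, the median deviation from the Con mean was -0.06, -0.15 and -0.09 in HKO arrays, against 0.03, 0.01 and -0.04 in Con arrays.

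Lists of other genes of matrix turnover were set beside the members. In the plasminogen system, which starts much of the activation of metalloproteinases, Plat, tissue-type plasminogen activator, fell. It had 3.23, 3.27 and 3.43 in HKO, against 4.15, 4.25 and 4.32 in Con, a gap several times the spread within groups. The difference was -0.93 ± 0.10 (SE), or 1.90-fold lower (limma adjusted p = 0.0222). The HKO mean of 3.31 lay below the median gene. Leaving out any 1 array ended the call, with an adjusted p of 0.0757 without HKO replicate 1, 0.0730 without HKO replicate 2, 0.0547 without HKO replicate 3, 0.0758 when Con replicate 1 was left out, 0.143 for Con replicate 2 and 0.0585 for Con replicate 3, and so did the replicate number as a block (0.0675). Of the 7 measured genes of that list, 1 fell and 0 rose at that threshold, which 0.203% of all genes passed. At an unadjusted limma p under 0.05, 4 were lower and 1 higher (Serpinf2), against 6.56% and 5.31% of all genes. HKO arrays lay wholly below Con in 4 and wholly above in 2 (Serpinf2 and Plg), against 10.1% and 8.05% of all genes. The median difference was -0.30.

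Other proteases and matrix genes had 0 calls at an adjusted p of 0.05, which 0.203% of all genes passed. Among 20 genes of procollagen processing and other metalloproteases the median difference was -0.05. At an unadjusted limma p under 0.05, 1 of these was lower (Pcolce) and 1 higher (Bmp1), against 6.56% and 5.31% of all genes. Pcolce, the enhancer of procollagen C-proteinase, had 5.53, 5.21 and 5.16 in HKO, against 5.59, 6.01 and 5.71 in Con (adjusted p = 0.293), while Bmp1, that proteinase itself, had 7.98, 7.89 and 7.84 in HKO, against 7.66, 7.65 and 7.56 in Con (adjusted p = 0.323). The enhancer was thus lower and the enzyme higher in every HKO array, each short of the threshold. All 8 cathepsins and cystatins had lower HKO means, where 51.8% of all genes did, and their median was -0.17. At that unadjusted p, 2 of the 8 were lower and 0 higher. Cathepsin Ctss had 7.86, 7.88 and 7.54 in HKO, against 8.38, 8.39 and 7.97 in Con (adjusted p = 0.287).

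The 14 genes of collagen modification and crosslinking outside the lysyl oxidases had a median difference of -0.09. At an unadjusted limma p under 0.05, 3 were lower and 1 higher (P3h2), against 6.56% and 5.31% of all genes. Tgm2, a transglutaminase that crosslinks matrix proteins, had 8.06, 8.15 and 8.05 in HKO, against 8.48, 8.65 and 8.22 in Con (adjusted p = 0.333). P3h2 went the other way, with 5.45, 5.42 and 5.63 in HKO, against 5.09, 5.33 and 5.22 in Con (adjusted p = 0.374). Among the 22 substrates and partners of these enzymes the median was -0.27, with 19 lower and 3 higher HKO means. Of the 22, 7 were lower at an unadjusted limma p under 0.05. Over all genes, 51.8% had a lower HKO mean and 6.56% were lower at that p. Postn, periostin, a matrix protein of scar tissue that binds the lysyl oxidase activator Bmp1, had 5.65, 5.50 and 6.15 in HKO, against 6.91, 6.96 and 6.82 in Con. Its difference of -1.13 ± 0.17 (SE) had an adjusted p of 0.0537. Thbs1, thrombospondin 1, had 3.80, 3.77 and 4.14 in HKO, against 4.62, 5.09 and 4.76 in Con (-0.92 ± 0.16, adjusted p = 0.0835). Both genes were separate by a wide margin.

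**Figure D4:**
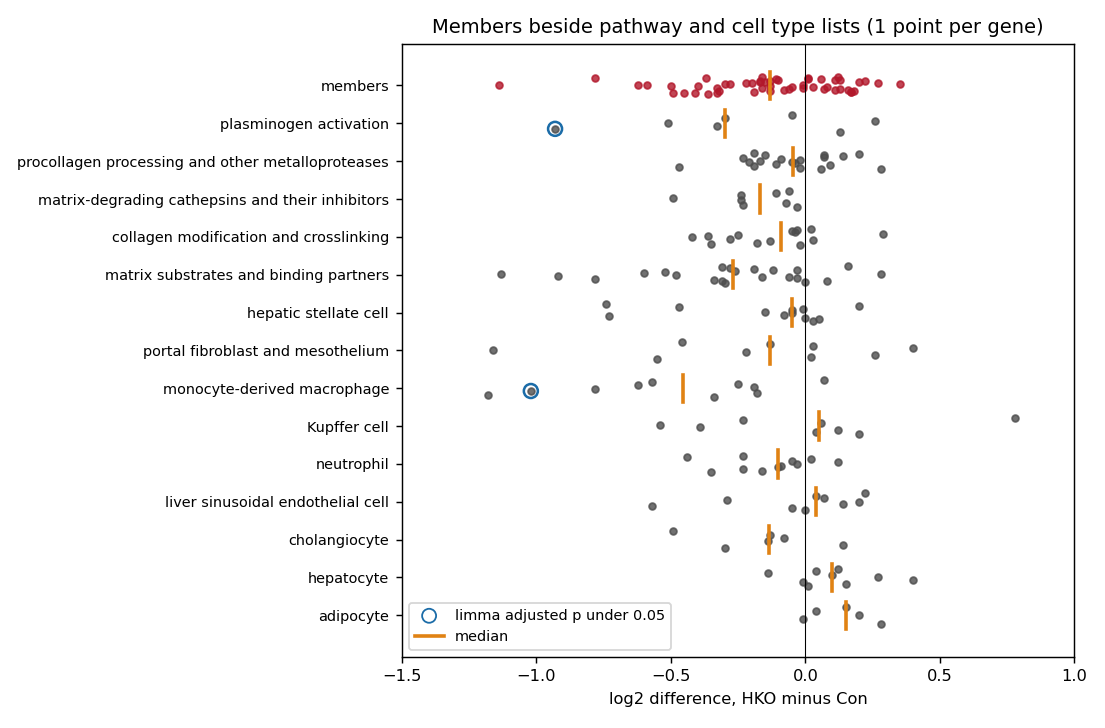
Log2 difference HKO minus Con (horizontal axis) of the 53 members (red) and of each measured gene in 5 lists of matrix turnover and 9 lists of cell type markers (grey), with the median of each list in orange and genes past a limma adjusted p of 0.05 ringed. The ringed genes are Plat and Itgax; the macrophage list has the lowest median, -0.45, and the hepatocyte and adipocyte medians lie above 0.

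Some markers of the cells that make these proteins were lower as well, and others were higher. Single markers are named by their unadjusted p, after their values were seen. Over all genes, 6.56% were lower and 5.31% higher at an unadjusted limma p under 0.05. The 12 hepatic stellate cell markers had mean levels of 6.34, 6.38 and 6.46 in HKO, against 6.44, 6.69 and 6.56 in Con, with 3 lower at an unadjusted p under 0.05 (Pdgfrb, Colec11 and Acta2) and a median difference of -0.05. HKO replicate 3 was above Con replicate 1, so the list did not separate the groups. The 9 portal fibroblast and mesothelium markers had means of 3.84, 4.11 and 3.81 in HKO, against 3.97, 4.06 and 4.34 in Con, which also overlapped. Of these markers, 5 had a lower and 4 a higher HKO mean, up to 0.40 ± 0.19 (SE) in Gas1, with a median difference of -0.13. At an unadjusted p under 0.05, 2 were lower (Dpt and Cd34) and 0 were higher. Dpt, dermatopontin, a matrix protein of fibroblasts, averaged 5.63 ± 0.22 in HKO and 6.80 ± 0.61 in Con (SD, n = 3 each). Its HKO arrays lay wholly below the Con arrays, and its difference of -1.16 ± 0.28 (SE; adjusted p = 0.180) was slightly larger than that of any member. Cd34 was also separate (-0.55 ± 0.15, adjusted p = 0.237). Sinusoidal endothelial markers had means of 7.55 to 7.59 in HKO and 7.57 to 7.62 in Con. Of these 9 markers, 3 had a lower and 6 a higher HKO mean, with a median difference of 0.04. At an unadjusted p under 0.05, 2 were lower, Lyve1 (-0.57 ± 0.20) and Pecam1 (-0.29 ± 0.09), and 0 were higher. The 6 cholangiocyte markers had means of 3.80 to 4.02 in HKO and 4.03 to 4.11 in Con, with 0 past that p. The 9 hepatocyte markers had means of 10.91, 10.79 and 10.76 in HKO, against 10.73, 10.70 and 10.71 in Con. Of these, 7 had a higher and 2 a lower HKO mean, with a median difference of 0.10. At an unadjusted p under 0.05, 2 were higher, Serpina1a (0.40 ± 0.11) and Cps1 (0.27 ± 0.11), and 0 were lower, while Alb stood at 0.01 and Ttr at -0.01. Of the portal fibroblast and mesothelium markers 4 of 9, and of the cholangiocyte markers 3 of 6, lay at or above the median level. Those below it are not shown to be above background. The part of all these lists in the members' values was not tested.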

How the data were processed

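RNA from matched pieces of liver (400 ng per mouse, biotin-labelled cDNA) was hybridised to 6 arrays, per the labels' protocols. What the authors deposited is a log2 value for each probe set and array. The submitters' processing notes name RMA and R 3.3.0. RMA corrects background, equalises the arrays' distributions and summarises probes, so differences are relative and those of dim genes are compressed. The sources used here give neither filters nor the array's genome build. Values run from 0.56 to 12.56. Arrays have no read depth; their number limits the precision.

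Of 41345 probe sets, 23521 had 1 gene, 1814 several and 16010 none in the platform annotation; 23328 of the first matched RefSeq (GRCm38.p6) by Entrez identifier, with 0 symbols changed. A gene with several probe sets took the one whose mean over the 6 arrays was highest, and low values were not filtered. HKO was compared with Con in limma 3.58.1 (R 4.3.3; lmFit and eBayes, a model of group alone, two-sided), and Benjamini-Hochberg adjustment covered 22180 genes at a threshold of 0.05. SE and 95% intervals are limma's. Each array is a separate mouse; nothing in the labels says which mice shared a litter or cage. The steps were tested on simulated data. Alternatives were normalization (a second quantile step, median centring), 2 level filters, the mean of probe sets or each alone, variance models (trend, robust), weighted arrays, replicate numbers as a block, an adjusted p of 0.1 and each array left out.

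Named were all Timp, Lox and Loxl genes, members with an unadjusted p under 0.05, the 3 highest-level and the most extreme members of each family, and, per list, genes past the threshold or up to 3 with the lowest p; genes outside this rule are marked. Members and lists were chosen with earlier results of these data known. Promoter windows are RefSeq's, matched by symbol for 35 of 53 members. Protein sequences were not used here. Plots were made in Python 3.11.15 and matplotlib 3.10.9.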

Additional observations from a re-analysis of the deposited data

How the results depend on the processing

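No member passed an adjusted p of 0.05 in limma except Mmp14, the 1 call among genes at a level of 5 or more and the 1 call with a variance trend; the first tests fewer genes, and for the second the cause was not tested. The count over all genes was 45, and 138 among genes at or above the median level, 242 among genes at a level of 5 or more, 215 with a variance trend, 115 at an adjusted p of 0.1, 3 with the replicate number as a block and 4 to 32 without 1 array. Over all members tested, the count with an unadjusted p under 0.05, 13, became 8 and 5 under the level filters, which test fewer members, and 7 to 12 without 1 array; the 12, without HKO replicate 1, were 10 lower and 2 higher. Of the 13 members themselves, 7 to 9 stayed under 0.05 without 1 array. The median difference over all members, -0.13, became -0.37 at a level of 5 or more and ran from -0.13 to -0.08 without 1 array. The deviations of same-numbered arrays correlated at 0.032, 0.016 and 0.021, and those of differently numbered arrays at -0.027 to 0.006. Values this small, from 3 arrays a group, do not settle if the numbers pair the mice. With the replicate block 13 members had an unadjusted p under 0.05, 12 lower and 1 higher. All 13 members stayed lower in every alternative that tested them. Over all 53 members the sign turned in at least 1 alternative for 14, with differences between -0.11 and 0.13. Of the members followed gene by gene, these were 5: Adamts10 stood at 0.04 after a second quantile normalization and between -0.07 and 0.02 without 1 array, Loxl4 between -0.05 and 0.03, Adamtsl1 between -0.13 and 0.10, Adamtsl4 between -0.18 and 0.24, and Mmp9 between -0.01 and 0.18; the cause was not tested. Postn passed in 5 of 16 alternatives and Thbs1 in 2 of 15. Thbs1 passed with a variance trend and among genes at or above the median level (3.94), which its HKO mean of 3.90 did not reach. Of 665 values of 44 genes under alternatives, 626 kept their sign and their side of the threshold.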

Other observations

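In all, 4 members have a second, dimmer probe set. Those of Adamts14 (0.03), Mmp11 (-0.02), Mmp7 (0.16) and Adamts8 (-0.22) had log2 differences, HKO minus Con, that fell on the other side of 0 from the probe sets used (-0.32, 0.22, -0.17 and 0.11), and none of the 8 had an unadjusted p under 0.05. For these genes no direction can be read.

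Outside the comparison, 3 probe sets that the annotation gives jointly to a gene of these families and to another gene were left out. Their HKO minus Con differences were -0.43, -0.58 and -0.41. These 3 were not tested. In the first and the third, every HKO array lay below every Con array, as in 10.1% of all genes compared. The first had 4.97, 4.93 and 5.16 in HKO, against 5.22, 5.38 and 5.74 in Con. The third had 4.38, 4.62 and 4.29 in HKO, against 4.87, 4.92 and 4.75 in Con. In the second, Con replicate 2 (5.85) stood far above the other 5 arrays, which lay between 4.16 and 4.32.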
